A study of Mus musculus with 6 samples.

Results

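The genes described here are 44 that act in DNA replication or are transcribed around S phase, the stage of the cell cycle in which the genome is copied. They were chosen by symbol from the count table of 18368 genes, in which all 44 had a row, and all 44 passed the filter on low counts that left 14443 genes for testing. RNA was sequenced from about 2000 haematopoietic stem cells (HSCs) per library, sorted from the bone marrow of adult mice. 3 libraries came from Ramp1 mutant mice, whose genotype label reads Ramp-/-, and 3 from Ramp1+/+ mice, called wild type here. The labels give no other allele or treatment, and do not state the part of the gene removed, the sort markers, or whether each library came from a separate animal. The p-values therefore measure the spread between these libraries, which may be technical. Ramp1 encodes the accessory subunit of the receptor for the neuropeptide CGRP, and the study asked how pain-sensing nerves affect HSC mobilization.

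Replication starts in G1, when the ORC complex and Cdc6 load the MCM helicase onto origins. At S phase entry, cyclin E with its kinase partner, and then Cdc45 and the GINS complex, turn the loaded helicase on. DNA polymerases follow it, held to the template by the PCNA clamp, while ribonucleotide reductase and thymidylate synthase supply nucleotides and histone chaperones rebuild chromatin. Many of these genes are targets of E2F transcription factors and are low in quiescent cells. Most HSCs of adult marrow are quiescent, so in a bulk library these transcripts report on the share of cycling cells as well as on their level per cell, and fewer cells in S phase cannot be told apart from less RNA per cell.

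The bases before the start sites of the members were read for the letters of the E2F site. RefSeq entries of build GRCm38.p6, the same build as mm10, were matched for 33 of the 44 members. The 11 members not matched were Atad2, Ccne2, Dscc1, Exo1, Gins1, Gins2, Gmnn, Mcm4, Rfc2, Tipin and Usp1. The 250 bases before each start were searched on both strands for TTTGGCGC, TTTCGCGC, TTTCCCGC and TTTGCCGC. The starts are those of RefSeq and can differ from the gene limits of the count table. By those limits the windows with a match of Cdc6, Mcm7 and Uhrf1, and the match of Hells, lie inside the gene. At least 1 of these was present for 10 of 33 members (30.3%), against 390 of 10075 tested genes with an entry (3.87%). The 10 were Casp8ap2, Cdc6, Cdca7, Dtl, Hells, Mcm5, Mcm6, Mcm7, Pola1 and Uhrf1. The letters CCAAT, the core of the NF-Y site, were present for 24 of 33 members (72.7%) and for 40.1% of the tested genes. Many replication genes are E2F targets, so a raised share among members was likely whatever these libraries showed. A match is a description of these letters and not a shown binding site. A relation between the letters and the levels in the libraries was not tested. The windows of Mcm6 (chr1:128359706-128359955, minus strand), Mcm5 (chr8:75109259-75109508, plus strand), Cdc6 (chr11:98907901-98908150, plus strand) and Dtl (chr1:191575545-191575794, minus strand) are shown 5′ to 3′ as examples. Capitals mark the E2F letters; in Mcm6 and Mcm5 a pair of matches on opposite strands overlaps.
Mcm6: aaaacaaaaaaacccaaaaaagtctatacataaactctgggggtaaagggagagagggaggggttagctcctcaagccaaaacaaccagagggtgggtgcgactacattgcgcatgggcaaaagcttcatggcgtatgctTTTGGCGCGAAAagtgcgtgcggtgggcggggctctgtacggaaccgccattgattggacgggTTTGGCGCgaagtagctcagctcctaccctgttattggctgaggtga
Mcm5: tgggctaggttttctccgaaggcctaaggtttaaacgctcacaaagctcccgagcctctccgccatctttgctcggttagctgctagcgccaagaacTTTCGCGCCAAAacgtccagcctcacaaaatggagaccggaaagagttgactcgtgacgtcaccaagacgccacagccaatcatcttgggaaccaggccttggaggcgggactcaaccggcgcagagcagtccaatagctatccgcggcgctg
Cdc6: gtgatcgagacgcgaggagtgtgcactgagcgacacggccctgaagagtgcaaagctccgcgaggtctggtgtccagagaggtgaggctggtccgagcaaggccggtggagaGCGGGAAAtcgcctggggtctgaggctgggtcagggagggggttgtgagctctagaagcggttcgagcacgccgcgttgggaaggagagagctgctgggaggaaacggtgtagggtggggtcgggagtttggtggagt
Dtl: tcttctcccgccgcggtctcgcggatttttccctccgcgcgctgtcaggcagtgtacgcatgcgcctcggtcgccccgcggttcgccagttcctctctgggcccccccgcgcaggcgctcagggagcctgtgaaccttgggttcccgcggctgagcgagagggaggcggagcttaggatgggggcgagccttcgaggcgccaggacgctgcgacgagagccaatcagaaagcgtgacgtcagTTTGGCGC

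Replication genes were at lower levels in mutant replicates 1 and 2, and at higher levels in mutant replicate 3, than in most wild-type libraries, and no difference between mutant and wild type passed the test. Of the 44 members, 41 had a lower fitted level in mutant than in wild-type HSCs, and the median log2 fold change was -0.15; among all genes tested 49.9% were lower and the median was 0.00. None of the 44 passed an adjusted p of 0.05 in edgeR's quasi-likelihood test, where 0.0208% of all genes did (0.0138% lower and 0.00692% higher in mutant), and none had an unadjusted p under 0.05, where 3.99% did. The smallest adjusted p among members was 0.999. DESeq2 on the same counts also called 0 members, where it called 38 of the 14443 genes. It gave 1 member an unadjusted p under 0.05, and the share of all genes at that p is not given here. No member had its 3 mutant libraries all below or all above the 3 wild-type libraries, whereas 4.38% of genes tested lay entirely below and 5.87% entirely above. The authors' deposited table, made from the same counts, also lists 41 of 44 members as lower, where 8762 of all 18368 genes are. None of the members is past an adjusted p of 0.05 there, where 37 of all genes are. Their smallest unadjusted p is 0.0432, that of Brip1.

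Seen library by library, the members formed a common pattern. Their median deviation from the mean of the 6 libraries, in log2 CPM (reads scaled to library size), was -0.39, -0.30 and 0.41 in mutant replicates 1, 2 and 3, against 0.09, 0.23 and 0.00 in wild-type replicates 1, 2 and 3. Mutant replicate 3 was the highest library for 36 members (81.8%), against 16.9% of all genes tested. The lowest library was mutant replicate 1 for 25 members and mutant replicate 2 for 16, together 93.2%, against 37.8% of all genes. Mutant replicate 1 lay below all wild-type libraries for 40 members and mutant replicate 2 for 36, where 28.0% and 28.1% of all genes did. Mutant replicate 3 lay above all wild-type libraries for 37 members, where 26.2% of all genes did. The libraries thus spanned a wider range within the mutant group than within the wild-type group: the median standard deviation of members was 0.45 log2 units among mutant and 0.17 among wild-type libraries, and it was larger in the mutant group for 42 of 44 members (95.5%), against 58.8% of all genes. For all genes tested these medians were 0.23 and 0.19. The wider mutant spread was not particular to the members. For the 53 G2/M genes described below the medians were 0.45 and 0.14, with the larger value in mutant for 49 (92.5%). For the further lists of replication, nucleotide supply, repair and G1/S control genes that share was 87.2%, 92.9%, 90.5% and 76.9%. Members share the library they were read from, so these counts describe 6 libraries and not 44 independent observations. The reads assigned to members made up 0.547%, 0.558% and 0.883% of all counted reads in mutant replicates 1, 2 and 3, against 0.730%, 0.804% and 0.678% in wild-type replicates 1, 2 and 3.

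**Figure D1:**
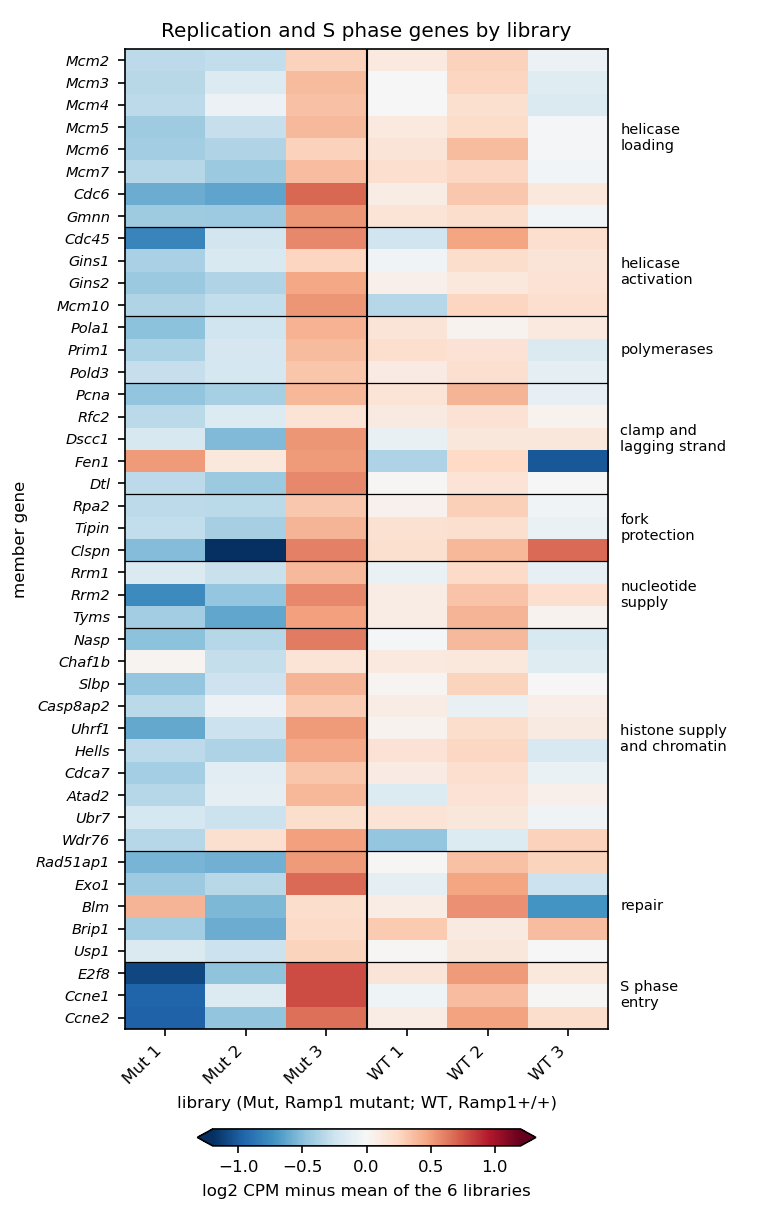
Each row is 1 of the 44 genes and each column 1 library; colour is log2 CPM minus the mean of the 6 libraries, and genes are grouped by role. Mutant replicates 1 and 2 are mostly blue, with medians of -0.39 and -0.30, and mutant replicate 3 is mostly red, with a median of 0.41.

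Genes of helicase loading were the most abundant role group, with a median level of 118 FPKM (reads scaled to gene length and to the counted reads of the library) over its 8 members. Mcm2 to Mcm7 encode the subunits of the hexameric MCM helicase. Their mean levels ran from 93.7 FPKM for Mcm4, through 115, 121, 139 and 158 FPKM for Mcm5, Mcm2, Mcm7 and Mcm3, to 178 FPKM for Mcm6. Neighbours in this order differed by less than their spread over libraries. Mcm6 had 132, 134 and 209 FPKM in mutant replicates 1 to 3, against 194, 223 and 173 FPKM in wild-type replicates 1 to 3. The first 2 mutant libraries were below every wild-type library and the last was inside their range. Its log2 fold change was -0.31 (SE 0.20, unadjusted p = 0.153, edgeR adjusted p = 0.999), the most negative of the 6 subunits. Mcm2 had 98.5, 95.8 and 144 FPKM in mutant libraries, against 131, 142 and 115 FPKM in wild-type libraries (log2 fold change -0.20, SE 0.17). Mcm7 had 110, 98.5 and 175 FPKM, against 158, 159 and 135 FPKM in wild type (-0.24, SE 0.21). For both, mutant replicates 1 and 2 were below all wild-type libraries; mutant replicate 3 was level with wild-type replicate 2 for Mcm2 and above all wild-type libraries for Mcm7.

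Mcm5 had 85.3, 91.6 and 147 FPKM in mutant libraries, against 124, 129 and 113 FPKM in wild-type libraries, a log2 fold change of -0.18 (SE 0.20). Mcm3 had 127, 138 and 202 FPKM in mutant libraries, against 157, 184 and 142 FPKM in wild-type libraries (-0.05, SE 0.19). Mcm4 had 76.0, 87.4 and 117 FPKM in mutant libraries, against 93.8, 104 and 83.6 FPKM in wild-type libraries (0.00, SE 0.17). For all 6 subunits replicate 3 was the highest mutant library, and for Mcm5 it had 1.77 times the CPM of replicate 1, the widest gap of the 6. The fitted differences of Mcm3 and Mcm4 were smaller than their standard errors. Cdc6, the ATPase that loads MCM with ORC, differed more between libraries, with 923, 1023 and 2380 reads in mutant libraries, against 1638, 1831 and 1553 reads in wild-type libraries (-0.23, SE 0.34). Gmnn encodes geminin, which blocks reloading of the helicase after S phase has begun, and had 34.2, 32.8 and 64.5 FPKM in mutant libraries, against 50.8, 51.1 and 44.7 FPKM in wild-type libraries (-0.15, SE 0.26). Both were below every wild-type library in the first 2 mutant libraries and above every one in the third.

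Genes that activate the helicase followed the same pattern at lower levels, between 5.98 and 23.7 FPKM on average. Cdc45, which joins MCM and GINS in the moving helicase, had 13.3, 19.1 and 33.6 FPKM in mutant libraries, against 19.3, 30.8 and 26.2 FPKM in wild-type libraries. Its groups overlapped and its log2 fold change was -0.21 (SE 0.34). Gins1, a GINS subunit, had 344, 451 and 571 reads in mutant libraries, against 482, 549 and 509 reads in wild-type libraries (-0.19, SE 0.20). For Gins2, another subunit, the log2 fold change was -0.18 (SE 0.25); for Mcm10, which helps to start the fork, it was -0.05 (SE 0.27). All 4 were highest in mutant replicate 3 and lowest in mutant replicate 1. The exons of Gins2 share 67.3% of their bases with Gse1 on the opposite strand, and the labels do not state whether counting used strand.

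The 3 polymerase genes had fitted differences between -0.15 and -0.09. Pold3, a subunit of the lagging-strand polymerase delta, was the most abundant with 29.5, 30.0 and 44.1 FPKM in mutant libraries, against 38.2, 39.4 and 32.8 FPKM in wild-type libraries (log2 fold change -0.09, SE 0.18). Pola1, the catalytic subunit of polymerase alpha, had 12.7, 14.6 and 23.2 FPKM in mutant libraries, against 19.5, 17.6 and 19.2 FPKM in wild-type libraries (-0.15, SE 0.22). Prim1, the primase that makes the RNA primers, had -0.10 (SE 0.21). For each of the 3, mutant replicates 1 and 2 were below all wild-type libraries and mutant replicate 3 above all of them.

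Pcna, the sliding clamp, had the highest mean of all members, at 180 FPKM. Mcm6, at 178 FPKM, differed from it by less than their spread over libraries. Pcna had 129, 131 and 229 FPKM in mutant libraries, against 197, 228 and 166 FPKM in wild-type libraries. The means were 163 ± 57.0 FPKM in mutant and 197 ± 31.3 FPKM in wild type (SD, n = 3 each), with a log2 fold change of -0.27 (SE 0.24, edgeR adjusted p = 0.999). In FPKM the mutant libraries spanned the wild-type range, with their highest value close to that of wild-type replicate 2. In log2 CPM wild-type replicate 2 was the highest library. Rfc2, a subunit of the clamp loader, had 127, 137 and 172 FPKM in mutant libraries, against 169, 172 and 162 FPKM in wild-type libraries (-0.20, SE 0.13). Its libraries differed little, with mutant replicate 3 at 1.40 times replicate 1. Dtl, the adaptor of a ubiquitin ligase that acts on proteins bound to PCNA, had 36.0, 31.7 and 65.2 FPKM in mutant libraries, against 44.6, 47.9 and 44.4 FPKM in wild-type libraries (-0.04, SE 0.25). Dscc1, part of an alternative clamp loader, had -0.06 (SE 0.28).

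Fen1, the flap nuclease of Okazaki fragment maturation, stood outside the pattern and was barely counted. It had 35, 30 and 37 reads in mutant libraries, against 20, 30 and 11 reads in wild-type libraries, with a mean level of 0.465 FPKM over all libraries. This was the lowest level of any member, and the log2 fold change of 0.74 (SE 0.52) did not pass the test. In the GENCODE annotation, release vM21, 78.8% of the exon bases of Fen1 are shared with the antisense gene Gm10143 on the opposite strand. The part of this overlap in the low count was not tested.

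The 3 nucleotide supply genes had a median log2 fold change of -0.29, and none passed the test. Rrm1, the large subunit of ribonucleotide reductase, had 112, 101 and 160 FPKM in mutant libraries, against 118, 142 and 117 FPKM in wild-type libraries (-0.02, SE 0.18). Rrm2, its S phase subunit, varied more, with 25.2, 30.0 and 62.1 FPKM in mutant libraries, against 44.7, 51.9 and 48.6 FPKM in wild-type libraries (-0.30, SE 0.31). Mutant replicate 3 thus had 2.53 times the Rrm2 CPM of mutant replicate 1, while Rrm1 differed 1.47-fold between them. Tyms, thymidylate synthase, had 24.5, 20.7 and 44.8 FPKM in mutant libraries, against 34.5, 42.0 and 33.5 FPKM in wild-type libraries (-0.29, SE 0.28).

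The 3 fork protection genes had negative fitted differences and 0 passed. Clspn encodes claspin, which passes the ATR checkpoint signal to Chek1, and had 1.44, 0.774 and 3.06 FPKM in mutant libraries, against 2.33, 2.62 and 3.29 FPKM in wild-type libraries. Its log2 fold change was -0.64 (SE 0.46, unadjusted p = 0.198, edgeR adjusted p = 0.999), on 104 to 382 reads in the mutant libraries and 297 to 387 reads in the wild-type libraries. With all libraries this was the most negative value of any member, but it ran from -1.33 without mutant replicate 3 to -0.28 without mutant replicate 2, where Brip1 was lower at -0.32. Mutant replicate 3 lay inside the wild-type range. Tipin, which holds polymerase and helicase together at the fork, was far more abundant with 85.0, 77.3 and 135 FPKM in mutant libraries, against 118, 115 and 98.7 FPKM in wild-type libraries (-0.15, SE 0.21). Rpa2, a subunit of the protein that coats single-stranded DNA, had -0.18 (SE 0.19).

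**Figure D2:**
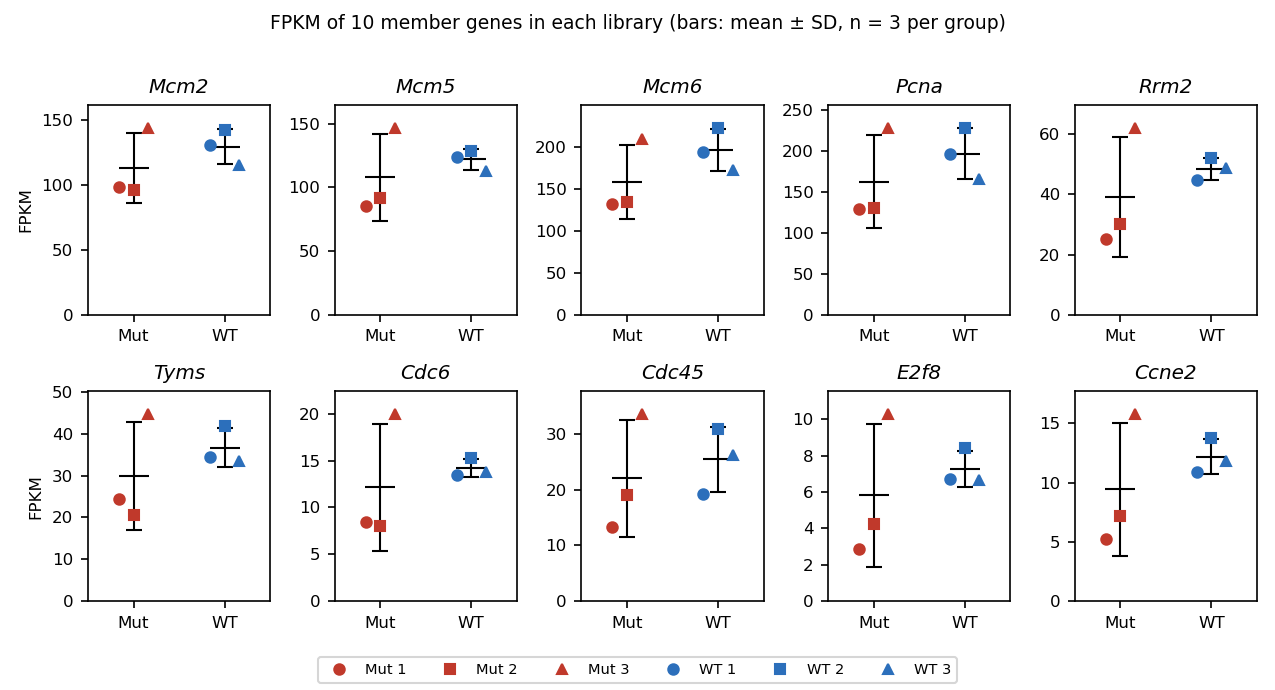
FPKM of 10 genes in each library, with symbols for replicates 1 to 3, mutant libraries left of wild-type libraries, and bars for the mean ± SD of 3 libraries. In every panel mutant replicates 1 and 2 are near or below the lowest wild-type library, and mutant replicate 3 is inside or above the wild-type range, as for Mcm6 with 209 FPKM against 173 to 223 FPKM in wild type.

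The 10 genes of histone supply and chromatin were all highest in mutant replicate 3. Cdca7, the nuclear partner of the remodeller Hells, was the most abundant with 117, 138 and 190 FPKM in mutant libraries, against 165, 172 and 146 FPKM in wild-type libraries (log2 fold change -0.12, SE 0.18). Ubr7, a protein of the N-recognin family, had 37.1, 34.6 and 48.2 FPKM in mutant libraries, against 47.5, 45.4 and 41.2 FPKM in wild-type libraries (-0.16, SE 0.14). Uhrf1, which brings the maintenance DNA methyltransferase to newly copied DNA, had 47.9, 59.2 and 102 FPKM in mutant libraries, against 74.5, 81.2 and 78.1 FPKM in wild-type libraries (-0.16, SE 0.25). Its wild-type libraries were close together while mutant replicate 3 had 2.18 times the CPM of mutant replicate 1. Slbp, which binds the stem-loop of histone mRNAs, had -0.16 (SE 0.21), Hells -0.12 (SE 0.23) and the histone chaperone Nasp -0.07 (SE 0.30). Chaf1b, a subunit of the chromatin assembly factor CAF-1, varied least of the members, by 0.46 log2 units over the 6 libraries, and had -0.06 (SE 0.14). Casp8ap2, needed for histone gene transcription, had -0.03 (SE 0.16), and Atad2, a bromodomain ATPase, -0.02 (SE 0.19). Wdr76, a WD-repeat protein, had the only positive value of the group at 0.24 (SE 0.29), with 2.05, 2.89 and 3.56 FPKM in mutant libraries, against 1.87, 2.24 and 3.14 FPKM in wild-type libraries.

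Repair genes were low except Usp1, which removes ubiquitin from PCNA and Fancd2. Usp1 had 57.3, 52.2 and 75.8 FPKM in mutant libraries, against 64.5, 68.2 and 64.1 FPKM in wild-type libraries (log2 fold change -0.09, SE 0.14). Brip1, a helicase that works with Brca1, had the smallest unadjusted p of the members. It had 2.94, 2.53 and 4.51 FPKM in mutant libraries, against 4.84, 4.10 and 5.06 FPKM in wild-type libraries. Mutant replicate 3 was above wild-type replicate 2, so the groups overlapped. The means were 3.32 ± 1.05 FPKM in mutant and 4.67 ± 0.503 FPKM in wild type (SD, n = 3 each), a log2 fold change of -0.49 (SE 0.23, unadjusted p = 0.0640, edgeR adjusted p = 0.999). Permuting the 6 library values between the groups gave an exact two-sided p of 0.200, and 0.1 is the smallest p this design allows. The nuclease gene Exo1 had -0.01 (SE 0.32). Blm, the helicase mutated in Bloom syndrome, had 4.09, 2.04 and 3.44 FPKM in mutant libraries, against 3.23, 4.33 and 1.85 FPKM in wild-type libraries (0.01, SE 0.36), and was highest in wild-type replicate 2.

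By its median, the S phase entry group differed most between libraries; among single members Clspn had the widest range, 2.03 log2 units, followed by E2f8, Ccne1 and Ccne2 at 1.87, 1.74 and 1.62. Ccne2, an E-type cyclin, had 5.27, 7.19 and 15.8 FPKM in mutant libraries, against 10.9, 13.8 and 11.8 FPKM in wild-type libraries (log2 fold change -0.36, SE 0.38). Ccne1, the other E-type cyclin, had 2.02, 3.42 and 6.63 FPKM in mutant libraries, against 3.77, 4.94 and 3.96 FPKM in wild-type libraries (-0.06, SE 0.42). E2f8, an E2F family repressor that is itself made in S phase, had 2.88, 4.26 and 10.3 FPKM in mutant libraries, against 6.74, 8.42 and 6.64 FPKM in wild-type libraries (-0.32, SE 0.43). Each of the 3 was lowest in mutant replicate 1 and highest in mutant replicate 3. In CPM, mutant replicate 3 had 3.09, 3.38 and 3.67 times the level of mutant replicate 1 for Ccne2, Ccne1 and E2f8, against a median of 1.70 over all 44 members and 0.995 over all genes tested. Mutant replicate 3 was above mutant replicate 1 for 42 members, the exceptions being Fen1 and Blm, and above mutant replicate 2 for all 44.

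The sign of the group difference rested on single libraries. The median log2 fold change of members was 0.01 when mutant replicate 1 was left out, with 21 of 44 lower. It was -0.03 with 24 lower when mutant replicate 2 was left out. Leaving out mutant replicate 3 gave -0.45, with 42 of 44 lower, where 50.2% of all genes were. In that fit 30 members had an unadjusted p under 0.05 in either direction. Of all genes 4.32% were lower in mutant at that p, a share that leaves out genes higher in mutant. The adjusted threshold was passed by 0 members and by 0.0134% of all genes. The smallest adjusted p there was that of Cdc6, 0.358, with a log2 fold change of -0.81 (SE 0.13). Next to it stood Rrm2 at -0.82 (SE 0.14, edgeR adjusted p = 0.390). Without wild-type replicate 1, 2 or 3 the median was -0.14, -0.07 and -0.20, with 41, 32 and 41 members lower.

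**Figure D3:**
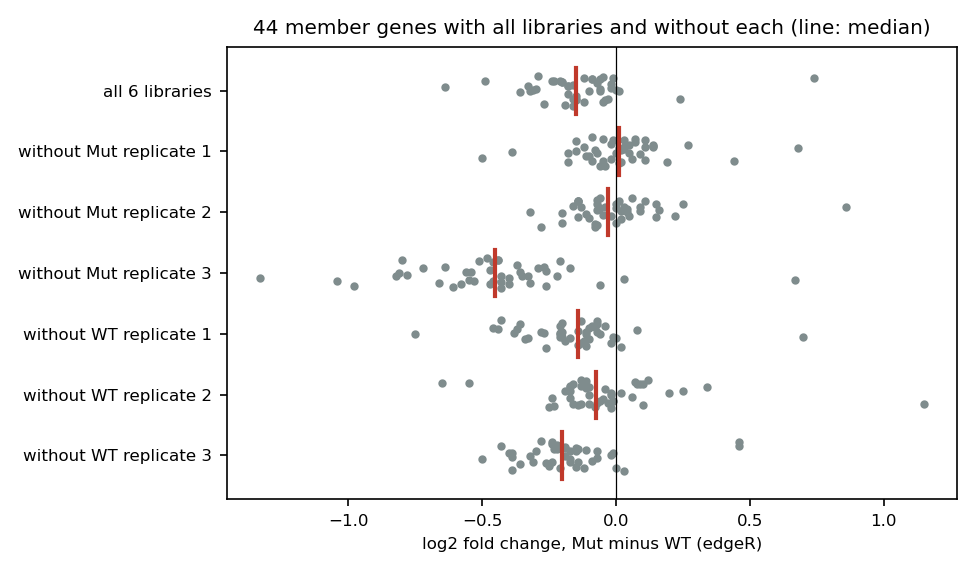
Points are the log2 fold changes, mutant minus wild type, of the 44 genes from edgeR fits with all libraries and with each library left out, and red lines are their medians. The median is -0.15 with all libraries; leaving out mutant replicate 1 gives 0.01, mutant replicate 2 gives -0.03 and mutant replicate 3 gives -0.45.

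Other replication genes, taken from lists of the same pathway, showed the same order of libraries over a narrower range. Of 47 further genes of origin recognition, polymerases, clamp loading and Okazaki fragments, 36 had a negative log2 fold change (median -0.13), and 0 passed. Their library medians were -0.22, -0.22 and 0.25 in mutant replicates 1 to 3, against 0.04, 0.20 and -0.03 in wild-type replicates 1 to 3. Donson, a factor of helicase assembly, had 4.63, 5.03 and 7.65 FPKM in mutant libraries, against 6.86, 8.92 and 8.98 FPKM in wild-type libraries (-0.51, SE 0.24, unadjusted p = 0.0686). Cdc7, the kinase that phosphorylates MCM at origin firing, had 6.47, 6.19 and 10.9 FPKM in mutant libraries, against 10.8, 10.5 and 11.3 FPKM in wild-type libraries (-0.47, SE 0.22, unadjusted p = 0.0703). Both had an edgeR adjusted p of 0.999 and overlapping groups.

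Of 14 further nucleotide supply genes 10 were lower (median log2 fold change -0.09). The p53-induced reductase subunit Rrm2b had a positive value, unlike Rrm2, with 5.51, 8.54 and 4.77 FPKM in mutant libraries, against 5.09, 4.69 and 3.57 FPKM in wild-type libraries (0.50, SE 0.25). Umps, of pyrimidine synthesis, had -0.14 (SE 0.16). Of 21 further repair genes 16 were lower (median -0.10), with Rmi1 at -0.38 (SE 0.17) and Fanca at -0.52 (SE 0.39). Of 26 genes of G1/S control 20 were lower (median -0.09). Among these Rb1, the retinoblastoma protein that holds E2F in check, had 5.89, 4.16 and 3.11 FPKM in mutant libraries, against 9.68, 7.60 and 4.80 FPKM in wild-type libraries (-0.75, SE 0.30, unadjusted p = 0.0384, edgeR adjusted p = 0.999). Its relative Rbl1 had -0.30 (SE 0.14). Rb1 was lowest in mutant replicate 3, where the members' median deviation was 0.41. It was next lowest in mutant replicate 2, where the members' median deviation was -0.30. A relation between Rb1 and the members was not tested. No gene of these 3 lists passed the adjusted threshold.

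Genes of G2 and mitosis shared the high value of mutant replicate 3 but ranked the other mutant libraries differently. Of 53 genes 47 had a negative fold change (median -0.19 in log2), and 0 passed. Their library medians were -0.21, -0.46 and 0.34 in mutant replicates 1 to 3, against -0.02, 0.20 and 0.15 in wild-type replicates 1 to 3. Mutant replicate 2 was the lowest library for 39 of the 53 G2/M genes and for 16 of the 44 replication genes, while mutant replicate 1 was the lowest for 9 and 25. Both lists come from the same 6 libraries and these counts were not tested against each other. The 2 with the smallest p were Gas2l3, a linker of actin and microtubules, at 0.33 (SE 0.13) and the mitotic kinase gene Ttk at -0.57 (SE 0.23).

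**Figure D4:**
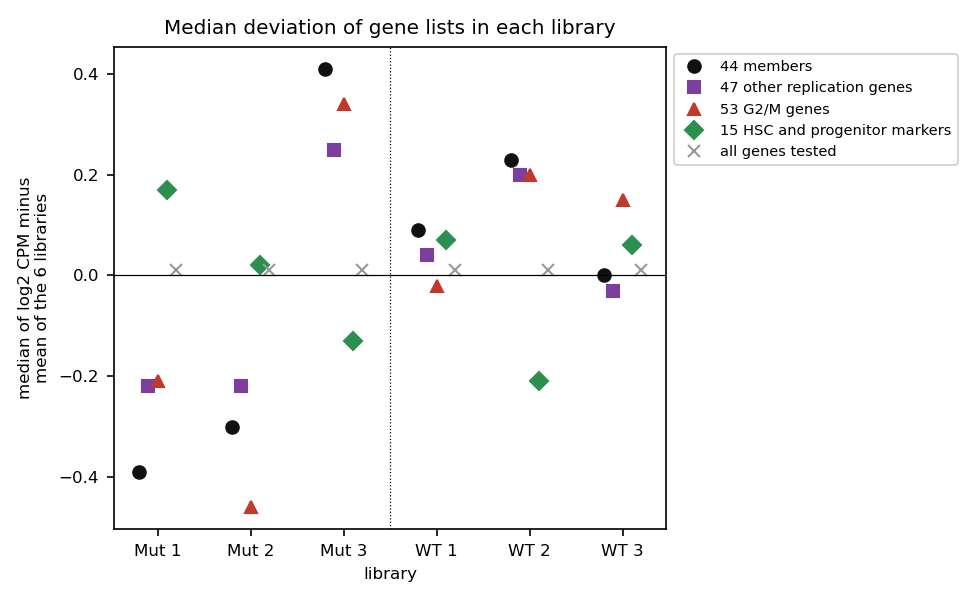
For each library, the median over a gene list of log2 CPM minus the mean of the 6 libraries; mutant libraries are on the left, and grey crosses are all genes tested. Replication genes and G2/M genes are both highest in mutant replicate 3, at 0.41 and 0.34. The HSC and progenitor markers have -0.13 there and are lowest in wild-type replicate 2, at -0.21.

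The targeted gene followed the labels, with Ramp1 at 3.53, 2.65 and 1.35 FPKM in mutant libraries, against 91.4, 88.3 and 91.0 FPKM in wild-type libraries. HSC markers were present in every library, among them Kit (260 to 460 FPKM in mutant, 323 to 461 FPKM in wild type), Ly6a (184 to 319 and 146 to 258 FPKM) and Procr (55.9 to 72.0 and 51.9 to 62.0 FPKM). Kit was lowest in mutant replicate 3, at 260 FPKM, and Ly6a was highest there, at 319 FPKM. Neutrophil markers varied within both groups, and their sum rose from replicate 1 to replicate 3 in each. Their 17 genes summed to 257, 929 and 1235 FPKM in mutant replicates 1 to 3, against 110, 417 and 889 FPKM in wild-type replicates 1 to 3. Of 16 tested, 14 had higher values in mutant HSCs. The neutrophil sum was highest in mutant replicate 3, as was that of the replication genes. In mutant replicates 1 and 2 the neutrophil sum was 257 and 929 FPKM, and that of the 44 members 1850 and 1893 FPKM. Ly6g was at 0 in replicate 1 of both groups. Summed markers spanned 1078 to 1322 FPKM in mutant and 1186 to 1235 FPKM in wild type for the erythroid list, most of it from Car2, 115 to 198 and 153 to 200 FPKM for megakaryocytes, and 503 to 645 and 505 to 581 FPKM for macrophages and monocytes, most of it from Lyz2. Of the 12 erythroid genes tested 8 were higher in mutant, with a median log2 fold change of 1.38. Slc4a1 had 5.94 (unadjusted p = 0.00132, edgeR adjusted p = 0.705) and Hba-a1 1.96 (unadjusted p = 0.0463, edgeR adjusted p = 0.999). Slc4a1 was barely counted, with 0.154, 1.14 and 0.532 FPKM in mutant libraries, against 0.0260, 0 and 0 FPKM in wild-type libraries. The 4 lower genes were Car1 at -1.25, Klf1 at -0.62, Epor at -0.15 and Car2 at -0.13. The median deviation of the 8 macrophage and monocyte genes tested was -1.02, 0.34 and 0.63 in mutant replicates 1 to 3, against 0.04, 0.17 and -0.04 in wild-type replicates 1 to 3. As for many replication genes, 7 of these 8 were lowest in mutant replicate 1, and their median was highest in mutant replicate 3. By fitted level 3 of the 8 were lower and 5 higher in mutant, with a median log2 fold change of 0.11. Cd68 had 4.32, 7.88 and 9.53 FPKM in mutant libraries, against 12.0, 12.2 and 11.6 FPKM in wild-type libraries (unadjusted p = 0.0478, edgeR adjusted p = 0.999). Csf1r went the other way, with 0.336, 1.09 and 0.900 FPKM in mutant libraries, against 0.478, 0.427 and 0.337 FPKM in wild-type libraries. The log2 fold change was -0.71 for Cd68 and 0.91 for Csf1r. B cell markers spanned 36.3 to 49.6 and 38.5 to 42.7 FPKM, and T and NK cell markers 30.8 to 48.0 and 38.5 to 64.4 FPKM, almost all from Nkg7. In the B cell list Cd79b supplied most of the level and Ms4a1 was at 0 in replicate 1 of both groups. All 5 B cell genes tested were higher in mutant, with a median log2 fold change of 0.95, and 0 passed. Among them Vpreb1 had 1.38 and Cd79a 0.99, at mean levels of 1.44 and 1.88 FPKM in mutant and 0.551 and 0.943 FPKM in wild type. Ebf1, of the same list, was barely counted, was not tested and went the other way. It had 0, 0.0438 and 0.0337 FPKM in mutant libraries, against 0.132, 0.0873 and 0.0644 FPKM in wild-type libraries. In the T cell list Cd3e, Cd3d and Cd3g were each at 0 in at least 2 wild-type libraries and in mutant replicate 1. Ahsp, Gp6, Mpig6b, Adgre1, Ccr2, Pax5, Igll1, Cd8a, Il2rb and Ncr1 had no row in the count table and were not analysed here. That table holds only genes with reads in mutant replicate 1 or 2. A marker read only in other libraries could therefore not enter the counts of markers higher or lower in mutant. The part of other cell types in the pattern of replication genes was not tested. Y-linked genes had 6137 reads in mutant replicate 1 and 6527 in wild-type replicate 1, and at most 2 in the other libraries. Between these 2 libraries the median log2 difference of members was -0.48, with 41 of 44 lower in mutant. Of all 14443 genes tested 7192 were lower there. Over replicates 2 and 3 of both groups the members' median was -0.06, with 30 lower, where 7311 of all genes tested were. That value averages mutant libraries of opposite direction. Against the wild-type mean, the members' median was -0.38 in mutant replicate 2 and 0.32 in mutant replicate 3. In mutant replicate 1 it was -0.48.

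The members lie on 17 chromosomes. Mcm3, Mcm6, Dtl and Exo1 share chromosome 1 with Ramp1, and start between 37.2 and 100 Mb from it, so no member is a close neighbour of the targeted gene.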

How the data were processed

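Raw read counts per gene, deposited by the authors for all 6 libraries, were analysed. The authors also deposited FPKM, which equal these counts scaled to the listed gene length and to the library's counted reads, and, per the file headers, log2 fold changes, p-values and a size-factor-normalized signal (not used). Per the submitters' processing notes, the tools were STAR, HTSeq 0.6.1, CASAVA and DESeq2 and the build mm10; no source used here gives annotation release or strand setting. The count table holds only genes with reads in mutant replicate 1 or 2. Libraries held 22796771 to 26734561 counted reads; Fen1, with 11 to 37 reads, was the lowest member.

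Counts were fitted with edgeR 4.0.16 under R 4.3.3 (TMM, filterByExpr, quasi-likelihood F test, two-sided, Benjamini-Hochberg over 14443 genes, adjusted p of 0.05); SE is the log2 fold change over the square root of F. Library values are log2 CPM (prior count 2). The fit was tested on simulated data. The members and lists were chosen with earlier results of these data known. Library values are given for 22 members by rule: Mcm2 to Mcm7, Pcna, Ccne1, Ccne2, and in each of 9 roles the most abundant member and that with the smallest p; in other lists 2 genes by smallest p. Other members, markers and promoters were chosen after their values were seen. Alternatives were other scalings, no filter, DESeq2 1.42.0, limma 3.58.1 on log2 FPKM with pseudocounts 1 and 0.1, the replicate number as a block, Y-linked reads as a covariate and each library left out. No libraries of a group agreed within sampling noise.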

Additional observations from a re-analysis of the deposited data

How the results depend on the processing

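With other scalings (DESeq2's size factors, library size only), no filter, DESeq2, both limma fits, the replicate block and the Y-linked covariate, 41 or 42 of 44 members stayed lower in mutant HSCs, the median was -0.20 to -0.15 and 0 members passed. Leaving out each library in turn gave 21 to 42 lower members, medians of -0.45 to 0.01 and 0 passing. Without both replicate 1 libraries, a setting chosen after seeing the data, 25 members were lower (median -0.04). Over all genes, 1 higher and 2 lower passed; the counts were 2 higher without a filter and with either limma fit, 18 higher and 20 lower with DESeq2, and 1 lower with limma at pseudocount 0.1, the replicate block, the Y-linked covariate or without both replicate 1 libraries. They were 1 to 2 higher and 1 to 4 lower with 1 library left out. The cause of these shifts was not tested.

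The labels do not say that replicate numbers mark a shared origin, and over all genes tested the deviations of same-numbered libraries correlated at 0.138, 0.002 and -0.094, so the numbers were not taken as pairs. Some genes did follow the number: Y-linked reads were found in replicate 1 of both groups, and Elane had 0, 30.5 and 0.350 FPKM in mutant replicates 1 to 3, against 0.815, 26.5 and 0.140 FPKM in wild-type replicates 1 to 3. The summed neutrophil markers rose with the number in both groups. They had 257, 929 and 1235 FPKM in mutant replicates 1 to 3, against 110, 417 and 889 FPKM in wild-type replicates 1 to 3. A shared origin or batch of same-numbered libraries was not tested. With the replicate block the members' median was -0.20 and 1 had an unadjusted p under 0.05. The share of all genes at that p is not given here. Among 22 named members over 15 settings, 304 of 330 values kept their direction and side of the threshold and 26 reversed, all where libraries were left out. With 1 library left out the ranges were -0.64 to 0.27 for Ccne1, -0.66 to 0.07 for Cdc45, -0.35 to 0.05 for Cdca7, -0.29 to 0.09 for Mcm3, -0.21 to 0.14 for Mcm4, -0.47 to 0.03 for Pola1, -0.32 to 0.03 for Pold3, -0.26 to 0.11 for Rrm1 and -0.27 to 0.02 for Usp1. They were -0.98 to -0.06 for Ccne2, -0.72 to -0.08 for Tyms and -0.61 to -0.11 for Pcna, which kept their sign. Without both replicate 1 libraries Ccne1 had 0.18, Cdca7 0.05, Mcm3 0.07, Mcm4 0.13, Pola1 0.05, Pold3 0.05, Rrm1 0.02 and Tipin 0.00.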
